A study of Mus musculus with 7 samples.

Results

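The Serpina1 and Serpina3 protease inhibitors of the mouse were followed in liver after lipopolysaccharide (LPS). The genes were chosen by symbol and are Serpina1a, Serpina1b, Serpina1c, Serpina1d, Serpina1e, Serpina3c, Serpina3g, Serpina3k, Serpina3m and Serpina3n, 10 of the 56691 genes in the deposited table, 5 in each family. All mice were male C57BL/6J, bought at 8 weeks of age and housed for 2 weeks before use. The LPS group (n = 3 livers) was injected with 10 mg/kg LPS, a cell wall component of Gram-negative bacteria, and killed 24 h later as a model of septic liver injury. The control group (n = 4 livers) received no LPS, and whether it received a vehicle injection is not given in the sources used here. Sulforaphane-treated mice of the same study were not analysed here. The comparison of LPS with control asks which liver transcripts change during septic injury. The study counts these libraries as mice, and p-values measure the spread between them.

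Serpins trap the protease they inhibit: the protease cuts an exposed reactive centre loop and stays bound to the inhibitor, so each inhibitor molecule is used up. Serpina1 genes encode alpha-1 antitrypsin, which hepatocytes secrete into plasma and which is best known as an inhibitor of neutrophil elastase. Serpina3 genes are the mouse relatives of human alpha-1 antichymotrypsin, an acute phase protein, and these copies differ most in the reactive centre loop that sets which proteases they bind.

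Total counts were 14991022, 15096573, 15721944 and 18584140 in control replicates 1 to 4 and 20500391, 17095607 and 17821331 in LPS replicates 1 to 3. Levels are given as CPM, the counts scaled to a common library size with TMM factors. Calls required an adjusted p below 0.05 in edgeR's quasi-likelihood test, run across 13683 genes. LPS replicates 2 and 3 resembled each other more than any other replicates did. The log2 ratio between them had an SD of 0.10 over genes with more than 2000 counts in the pair, against 0.29 to 0.58 in the other pairs, so the counts of genes called, the tests of the 10 genes and both sums, and the shares were also computed with both summed into 1 sample. Other results below were not. Mitochondrially encoded genes held 13.7% ± 7.35 (SD, n = 4) of control counts and 4.74% ± 1.48 (SD, n = 3) of LPS counts. Their part in the results was not tested beyond leaving them out of the library size, which moved no call among the 10 genes.

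The tissue label was checked with hepatocyte markers. Albumin (Alb) was at 46926 ± 11458 CPM (SD, n = 4) in control livers and at 24637 ± 25.9 CPM (SD, n = 3) in LPS livers. The 7 hepatocyte markers found in the table summed to 65845, 64885, 91724 and 77715 CPM in the control mice and to 59032, 71253 and 71809 CPM in the LPS mice, and these groups overlapped. Without Fgb, an acute phase gene, the other 6 summed to 61806, 60032, 85210 and 72349 CPM and to 39079, 42826 and 42678 CPM, without overlap. Fgb was higher, Alb, Ttr and Apoa1 were lower, and Apob, Cps1 and Ass1 did not pass, at log2 fold changes of 0.14, 0.62 and 0.00. The lower sum without Fgb thus rests on Alb, Ttr and Apoa1, and the median over the 7 was 0.00. For a gene that is lower in bulk tissue, fewer hepatocytes and less RNA per hepatocyte cannot be told apart.

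Of the 10 genes, 5 were called higher in LPS mice, where 13.3% of all genes tested were called higher, and these were the 5 Serpina3 genes. In the other direction 2 were called lower, Serpina1b and Serpina1d, where 13% of all genes tested were called lower. The remaining 3 genes, Serpina1a, Serpina1c and Serpina1e, did not pass, so 7 of 10 were called in either direction, where 26.3% of all genes were. The CPM of the groups did not overlap in 9 of the 10, where 35.4% of all genes tested did not overlap. Serpina3c, counted in the 5, the 7 and the 9, passed the expression filter only through the LPS mice, which fixes its direction. Across all genes tested, 1824 were higher and 1773 lower, and the median log2 fold change was -0.01. Without LPS replicate 2 or LPS replicate 3 the number lower was 1146 or 1159. With both summed, 1348 were higher and 1195 lower across all genes, and 4 were higher and 1 lower among the 10. Without the TMM factor this median fell by 0.12 and the split was 1350 higher to 2055 lower. No direction of the 10 genes turned under any scaling.

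**Figure D1:**
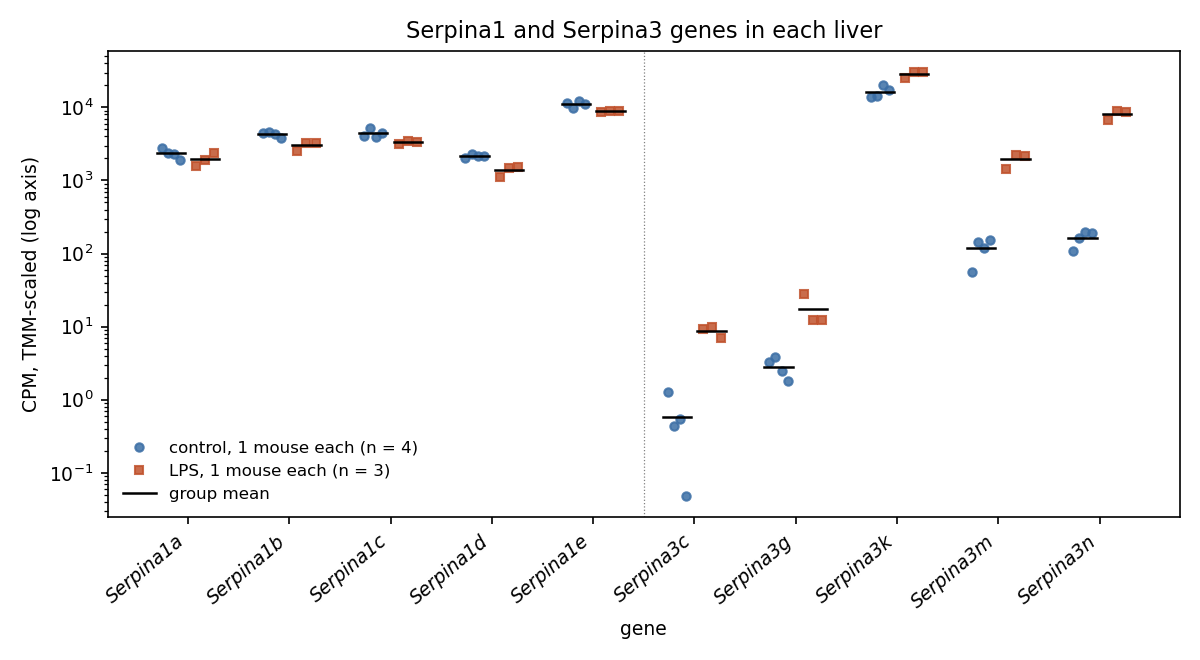
Level of each Serpina1 and Serpina3 gene in every liver, in TMM-scaled CPM on a log axis. Circles are control mice (n = 4), squares are LPS mice (n = 3) and black lines are group means. The Serpina3 points of both groups lie apart for all 5 genes, while the Serpina1a points overlap. Of all genes tested, 35.4% did not overlap.

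Serpina3n, which inhibits granzyme B and is the mouse gene most often set beside human antichymotrypsin, changed most among the 10 genes. Its level was 108, 164, 196 and 191 CPM in the control mice and 6818, 8813 and 8656 CPM in the LPS mice. Every LPS liver was far above every control liver. This was a log2 fold change of 5.62 (SE 0.25, 95% interval 5.07 to 6.17), or 49.1-fold, with an adjusted p of 1.52e-08 in edgeR's quasi-likelihood test.

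Serpina3m had a lower level than Serpina3n in both groups. It was measured at 55.8, 144, 120.1 and 154 CPM in the control mice and at 1435, 2234 and 2194 CPM in the LPS mice. The groups did not overlap, control replicate 1 was the lowest control and LPS replicate 1 the lowest LPS liver. LPS raised it by a log2 fold change of 4.04 (SE 0.31, 95% interval 3.37 to 4.72), or 16.5-fold, with an adjusted p of 1.27e-06 in edgeR's quasi-likelihood test.

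Serpina3k, a plasma inhibitor of tissue kallikrein also known as contrapsin, was abundant before treatment and rose by a smaller factor. Control mice had 14061, 14379.9, 20174 and 17209 CPM, and LPS mice had 25064, 30059.7 and 30529 CPM. All LPS livers were above all control livers. The log2 fold change was 0.79 (SE 0.21, 95% interval 0.33 to 1.26), or 1.73-fold, with an adjusted p of 0.0154 in edgeR's quasi-likelihood test. This call was lost without LPS replicate 2 (adjusted p = 0.0675), without LPS replicate 3 (adjusted p = 0.0739) and with both summed (adjusted p = 0.0695), at log2 fold changes of 0.76, 0.75 and 0.76.

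Serpina3g, a serpin kept inside the cell that inhibits lysosomal cysteine cathepsins, was at a low level. Control mice had 3.32, 3.78, 2.44 and 1.79 CPM, and LPS mice had 28.0, 12.4 and 12.4 CPM. LPS replicate 1 stood above the other LPS livers, and the groups did not overlap. Its log2 fold change was 2.65 (SE 0.34, 95% interval 1.92 to 3.38), or 6.28-fold, with an adjusted p of 9.08e-05 in edgeR's quasi-likelihood test. Without LPS replicate 1 it was 2.14, with an adjusted p of 0.000338. The 9 macrophage and Kupffer cell markers summed to 147, 214, 198 and 129 CPM in the control mice and to 727, 199 and 209 CPM in the LPS mice, with LPS replicate 1 highest there too. By group mean Clec4f was the most abundant of them in control mice and Marco in LPS mice, where Marco was at 409, 66.4 and 65.5 CPM. None was at 0, and their part in the Serpina3g level was not tested.

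Serpina3c was the least abundant of the 10 genes. It had 18, 7, 9 and 1 counts in the control mice and 201, 154 and 111 counts in the LPS mice, which are 1.27, 0.441, 0.549 and 0.0483 CPM against 9.25, 9.91 and 6.90 CPM. The groups did not overlap, but the control values rested on few reads, and the gene passed the expression filter only through the LPS mice, which fixes its direction. A log2 fold change of 3.97 (SE 0.55, 95% interval 2.77 to 5.16) was fitted, with an adjusted p of 0.000182 in edgeR's quasi-likelihood test. Without control replicate 1 it was 4.69, with an adjusted p of 3.3e-05. With LPS replicates 2 and 3 summed, the log2 fold changes were 2.85 for Serpina3g, 3.96 for Serpina3m and 5.57 for Serpina3n, and these genes and Serpina3c were still called.

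The Serpina3 sum, which does not depend on how reads were divided among these copies, rose. It was 14228.5, 14693, 20494 and 17557 CPM in the control mice and 33353, 41123 and 41400.3 CPM in the LPS mice, without overlap. Its log2 fold change was 1.21 (SE 0.22, 95% interval 0.73 to 1.68), with an adjusted p of 0.00131 in edgeR's quasi-likelihood test. An exact permutation test (two-sided) on log2 CPM gave p = 0.0286, the smallest that 4 against 3 livers allow. With LPS replicates 2 and 3 summed, the log2 fold change was 1.17 and the adjusted p 0.0101, and no exact permutation p could then fall below 0.0667.

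The makeup of this sum changed. Serpina3k held 98.3% ± 0.425 (SD, n = 4) of it in control mice and 74.0% ± 1.05 (SD, n = 3) in LPS mice. Serpina3n went from 0.980% ± 0.162 (SD, n = 4) to 20.9% ± 0.494 (SD, n = 3), and Serpina3m from 0.708% ± 0.269 (SD, n = 4) to 5.01% ± 0.617 (SD, n = 3). None of these 3 shares overlapped between groups. In absolute terms Serpina3k still made up most of the added transcript. Mean CPM of the sum was 21884 higher in LPS mice, of which Serpina3k accounted for 55.3%, Serpina3n for 36.2% and Serpina3m for 8.39%.

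**Figure D2:**
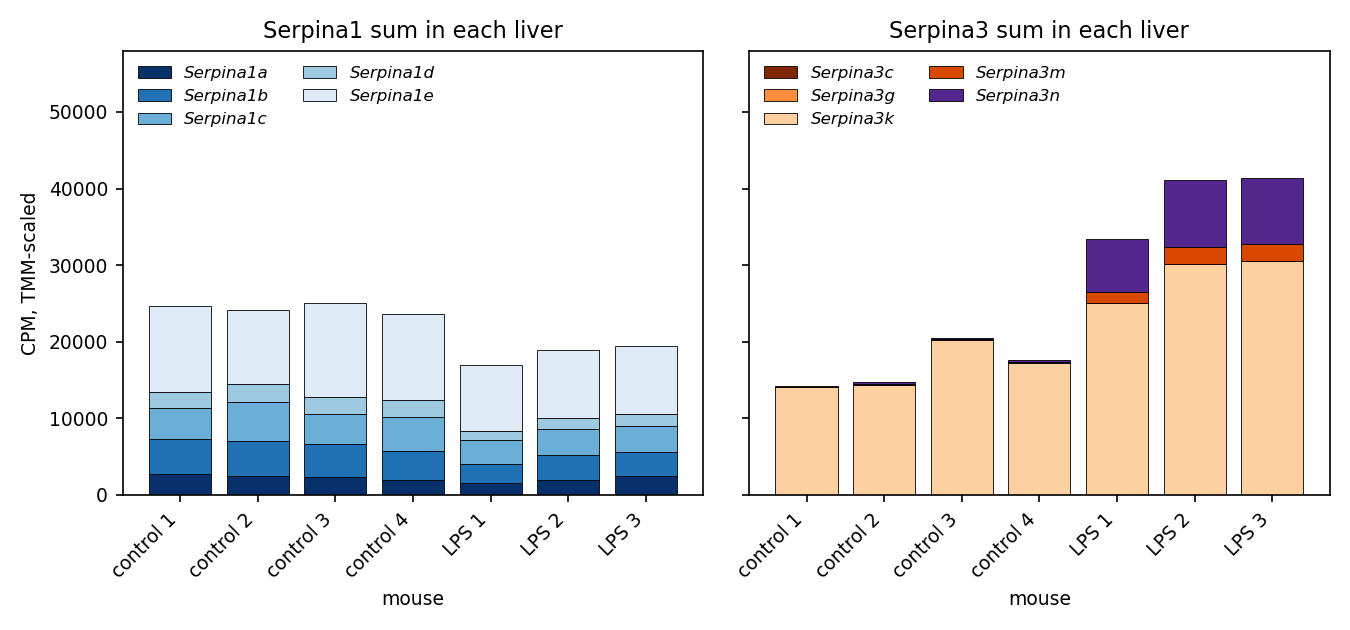
Stacked CPM (TMM-scaled) of the 5 Serpina1 genes and of the 5 Serpina3 genes in every liver, with 1 bar per mouse. The Serpina1 bars lie between 23611 and 25024 CPM in control mice and between 17014 and 19415 CPM in LPS mice, and the Serpina3 bars gain a visible Serpina3n and Serpina3m layer in LPS mice.

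The alpha-1 antitrypsin genes all had negative log2 fold changes, of which 2 of 5 passed. Serpina1e, the most abundant of them, had 11332, 9717, 12230.4 and 11265 CPM in the control mice and 8693, 8845 and 8880.3 CPM in the LPS mice. No LPS liver reached the lowest control liver. The log2 fold change was -0.34 (SE 0.18, 95% interval -0.73 to 0.06), and it did not pass, with an adjusted p of 0.197 in edgeR's quasi-likelihood test. DESeq2 gave an adjusted p of 0.0381 for the same gene.

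Serpina1d had the most negative log2 fold change of the 10 genes. Its level was 2029, 2273, 2179 and 2130.2 CPM in the control mice and 1109, 1499 and 1529 CPM in the LPS mice. The groups did not overlap, and LPS replicate 1 was the lowest. The log2 fold change was -0.64 (SE 0.17, 95% interval -1.01 to -0.27), or 1.56-fold lower, with an adjusted p of 0.0142 in edgeR's quasi-likelihood test. With LPS replicates 2 and 3 summed the adjusted p was 0.0439.

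Serpina1b had 4481, 4560.3, 4360.1 and 3815 CPM in the control mice and 2521, 3256 and 3259.8 CPM in the LPS mice. These groups did not overlap either. The log2 fold change was -0.51 (SE 0.18, 95% interval -0.90 to -0.13), or 1.43-fold lower, with an adjusted p of 0.0478 in edgeR's quasi-likelihood test. The call was lost in each of the 7 fits that left out 1 mouse, with adjusted p between 0.0508 and 0.124 and log2 fold changes between -0.57 and -0.40, and with LPS replicates 2 and 3 summed, with an adjusted p of 0.114 and a log2 fold change of -0.56.

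Serpina1c had 4122, 5179, 3952 and 4473 CPM in the control mice and 3134, 3437 and 3351 CPM in the LPS mice. All LPS values were below all control values, yet the adjusted p was 0.0922 in edgeR's quasi-likelihood test (log2 fold change -0.42, SE 0.17). DESeq2 gave an adjusted p of 0.0143, and edgeR without the TMM factor gave 0.0368. Serpina1a had 2761, 2411, 2301 and 1925 CPM in the control mice and 1557, 1885 and 2394 CPM in the LPS mice. Its groups overlapped, with a log2 fold change of -0.27 (SE 0.19) and an adjusted p of 0.340 in edgeR's quasi-likelihood test.

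The Serpina1 sum was 24722, 24142, 25024 and 23611 CPM in the control mice and 17014, 18921 and 19415 CPM in the LPS mice. Control livers lay close together, and every LPS liver was below them. Its log2 fold change was -0.40 (SE 0.19, 95% interval -0.82 to 0.01), and it did not pass in edgeR's quasi-likelihood test (adjusted p = 0.147). The exact permutation test (two-sided) on log2 CPM gave p = 0.0286, the smallest possible. DESeq2 called the sum (adjusted p = 0.00434, log2 fold change -0.40), as did edgeR without the TMM factor (adjusted p = 0.0369, log2 fold change -0.52). With LPS replicates 2 and 3 summed the adjusted p was 0.289. Shares within the Serpina1 sum moved little. Serpina1e held 45.7% ± 3.82 (SD, n = 4) of it in control mice and 47.9% ± 2.84 (SD, n = 3) in LPS mice, which overlapped. The Serpina1d share, 8.84% ± 0.511 (SD, n = 4) against 7.44% ± 0.799 (SD, n = 3), was the only Serpina1 share that did not overlap.

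Set against each other within each liver, a ratio that needs no scaling, the Serpina3 sum went from below the Serpina1 sum to above it. The ratio of counts was 0.576, 0.609, 0.819 and 0.744 in the control mice and 1.96, 2.17 and 2.13 in the LPS mice. It lay under 1 in every control liver and over 1 in every LPS liver. The mean log2 ratio was 1.62 higher in LPS mice, with p = 0.0286 in the exact permutation test (two-sided). Both sums together held 4.27% ± 0.486 (SD, n = 4) of control counts and 5.43% ± 0.0798 (SD, n = 3) of LPS counts.

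Close copies were then compared within families, as the log2 ratio of counts of each pair in each liver. There were 20 pairs, 10 in each family. After Benjamini-Hochberg adjustment of exact permutation p-values over the 20 pairs, 0 had an adjusted p below 0.05, while 6 had an unadjusted p below it, and the smallest adjusted p was 0.0952. The design limits this test, since 12 pairs would have to reach the smallest possible p of 0.0286 for any to pass. The ratio did not overlap between groups in 7 pairs, 6 of them in Serpina3 and 1 in Serpina1. Of all single genes tested, 35.4% did not overlap. No share over other gene pairs was computed, so this count is not read as particular to these families. The largest difference was that of Serpina3k to Serpina3n, whose mean log2 ratio was 6.66 ± 0.26 (SD, n = 4) in control mice and 1.82 ± 0.05 (SD, n = 3) in LPS mice, a difference of -4.84 (SE 0.13) with an exact permutation p of 0.0286. Serpina3m to Serpina3n fell by 1.53 (SE 0.20, exact permutation p = 0.0286), although both genes were called higher. Serpina3k to Serpina3m fell by 3.31 (SE 0.33, exact permutation p = 0.0286). In Serpina1 the pair without overlap was Serpina1d to Serpina1e, with a difference of -0.32 (SE 0.17, exact permutation p = 0.0286). The other Serpina1 pairs overlapped, and differences over the 10 pairs were between 0.05 and 0.37 in size.

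**Figure D3:**
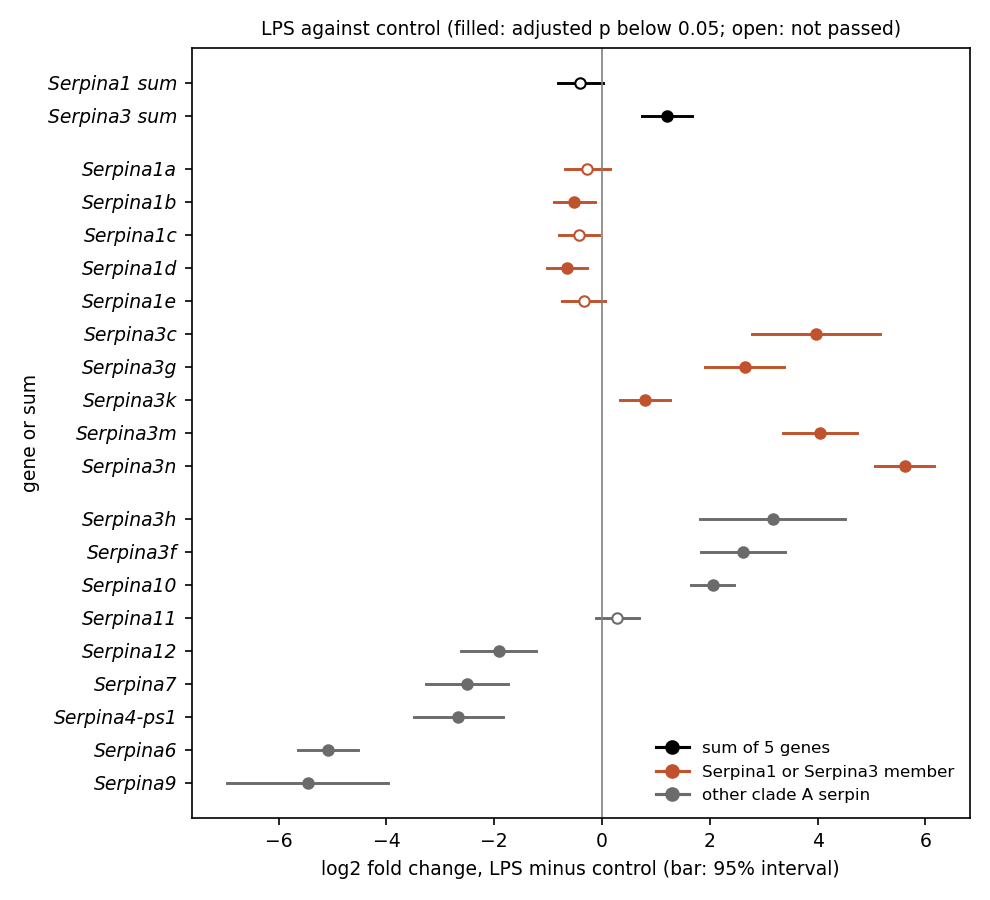
Log2 fold change of LPS against control with its 95% interval for both family sums, the 10 Serpina1 and Serpina3 genes and 9 other clade A serpins. Filled points had an adjusted p below 0.05 in edgeR's quasi-likelihood test and open points did not. Serpina3 members range from 0.79 to 5.62 and Serpina1 members from -0.64 to -0.27. Serpina3i and Serpina5 are not drawn, since no control mouse had more than 3 counts of either.

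Levels of different genes were compared per kilobase of exon, with lengths from GENCODE M21. In control mice the order began with Serpina3k at 8000 ± 1387 CPM per kilobase (SD, n = 4) and Serpina1e at 6887 ± 645 CPM per kilobase (SD, n = 4), which differed by less than their spread. Serpina1c, Serpina1b, Serpina1d and Serpina1a followed at 3256, 1782, 1544 and 1282 CPM per kilobase. Serpina3n at 79.8 ± 19.4 and Serpina3m at 68.9 ± 25.6 CPM per kilobase (SD, n = 4) did not differ beyond their spread, and Serpina3g and Serpina3c were at 1.35 and 0.261 CPM per kilobase. In LPS mice Serpina3k was at 13880 ± 1472 CPM per kilobase (SD, n = 3), Serpina1e at 5446 ± 61.4 and Serpina3n at 3922 ± 537. Serpina1c was at 2430.1 ± 115 CPM per kilobase (SD, n = 3), and its level, like any order here that involves Serpina1 genes, depends on how reads shared among these copies were counted. Serpina1b, Serpina3m, Serpina1a and Serpina1d lay between 1247 and 989 CPM per kilobase in LPS mice, and neighbours in that order differed by less than their spread.

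How far single copies can be told apart depends on their sequence. In GENCODE M21 the 5 Serpina1 coding sequences were 96.3% to 98.5% identical in pairs, with a median of 96.6%. The 5 Serpina3 coding sequences were 82.5% to 92.6% identical, with a median of 85.6%. Pairs with Serpina3g, whose coding sequence had 744 bases, aligned over 640 to 646 bases, against 1242 to 1254 in the other Serpina3 pairs. The 82.5% was that of Serpina3g and Serpina3k. Of the windows of 100 bases in each transcript, 58.5% in Serpina1c, 47.4% in Serpina1a, 26.3% in Serpina1d, 19.2% in Serpina1b and 14.8% in Serpina1e occurred unchanged in another Serpina transcript, all of them in Serpina1 genes. In Serpina3m this share was 6.09%, in Serpina3k 4.85% and in Serpina3g 4.64%, in Serpina3n it was 0.204%, and Serpina3c had 0 such windows. Exons of Serpina3k and Serpina3m also overlapped on the same strand in this annotation, and Serpina1c had an exon overlap with B430119L08Rik on the opposite strand. How the authors treated reads that fit several genes, and the strand setting of the counting, are not given in the sources used here. Values of single Serpina1 genes, and less so of Serpina3g, Serpina3k and Serpina3m, are therefore uncertain. The sums are free of the division among their own copies but not of reads left uncounted because they fit several genes. Serpina3g also shares windows with Serpina3e-ps, Serpina3f, Serpina3h and Serpina3i, which are outside the Serpina3 sum.

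The promoters of the Serpina1 genes are shown because the fold changes of all 5 pointed the same way. RefSeq (build GRCm38.p6) promoter entries were found for 8 of the 10 genes, and Serpina3k and Serpina3m had none. The 250 bases before the start were searched on both strands for the STAT motif TTCNNNGAA, the C/EBP motif TTGCNNAA and an interferon-regulatory factor motif, which 7.02%, 9.56% and 2.98% of 32851 promoters of that length hold. The 5 Serpina1 windows were 92.1% to 98.0% identical in pairs, counted over aligned bases without gaps. Pairs with Serpina1e aligned over 188 to 199 bases, against 238 to 248 in the other Serpina1 pairs. The 98.0% was that of Serpina1b and Serpina1e. TTGCTTAA, a C/EBP match, lay 161, 149 and 211 bases before the start in Serpina1b, Serpina1d and Serpina1e, while Serpina1a and Serpina1c differ from it in the last letter. These 3 genes include both that were called lower and 1 that did not pass. A match is a description of letters and not a binding site. The first 120 of these 250 bases follow, 5′ to 3′ along the gene's strand, with the C/EBP match in capitals. They lie on the minus strand at chr12:103863750-103863869 for Serpina1a, chr12:103738320-103738439 for Serpina1b, chr12:103905081-103905200 for Serpina1c, chr12:103773764-103773883 for Serpina1d and chr12:103957028-103957147 for Serpina1e.
Serpina1a: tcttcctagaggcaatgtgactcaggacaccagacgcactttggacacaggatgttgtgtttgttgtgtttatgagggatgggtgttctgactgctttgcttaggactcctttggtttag
Serpina1b: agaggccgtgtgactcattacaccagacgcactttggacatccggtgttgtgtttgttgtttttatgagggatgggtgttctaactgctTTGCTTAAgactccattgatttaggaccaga
Serpina1c: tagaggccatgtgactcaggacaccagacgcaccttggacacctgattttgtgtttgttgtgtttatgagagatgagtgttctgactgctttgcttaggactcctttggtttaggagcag
Serpina1d: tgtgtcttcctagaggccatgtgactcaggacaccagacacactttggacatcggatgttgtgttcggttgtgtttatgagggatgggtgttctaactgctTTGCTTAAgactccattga
Serpina1e: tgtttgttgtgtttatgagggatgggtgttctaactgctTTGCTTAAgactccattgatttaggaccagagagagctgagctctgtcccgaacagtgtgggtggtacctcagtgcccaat

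Among the Serpina3 genes, the windows of Serpina3c and Serpina3n were 92.7% identical, although their control levels were 0.578 ± 0.511 and 165 ± 40.1 CPM (SD, n = 4). Serpina3g held the STAT letters TTCCCAGAA 33 bases before its start. Serpina3c and Serpina3n held none of the 3 motifs, which says only that these letters are not in their 250 bases. The last 120 bases from RefSeq (build GRCm38.p6) are shown to set the near-identical pair beside Serpina3g, with the STAT match in capitals. Serpina3c lies on the minus strand at chr12:104153873-104153992, and Serpina3n at chr12:104406588-104406707 and Serpina3g at chr12:104236027-104236146 lie on the plus strand.
Serpina3c: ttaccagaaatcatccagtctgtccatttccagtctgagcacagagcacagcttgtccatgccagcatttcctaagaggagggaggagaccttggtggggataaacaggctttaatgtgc
Serpina3n: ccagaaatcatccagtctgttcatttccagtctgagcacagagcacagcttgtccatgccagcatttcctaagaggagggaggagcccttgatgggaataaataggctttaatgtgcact
Serpina3g: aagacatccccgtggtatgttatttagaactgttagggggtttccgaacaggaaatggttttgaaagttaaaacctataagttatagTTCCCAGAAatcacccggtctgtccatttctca

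Other clade A serpins split in both directions. Of 19 further genes of this clade in the table, 11 were tested, of which 5 were higher, 5 lower and 1 did not pass, with a median log2 fold change of 0.28. Of these calls, 3 higher and 1 lower were of genes that passed the expression filter through 1 group only, which fixes their direction. The higher genes included Serpina10, which inhibits coagulation factor Xa with protein Z, at 181 ± 25.4 CPM (SD, n = 4) in control mice and 753 ± 171 CPM (SD, n = 3) in LPS mice. Serpina6, which carries corticosteroids in plasma, was lower, at 124 ± 22.9 and 3.62 ± 1.11 CPM (log2 fold change -5.09, SE 0.26). Serpina12 (vaspin) was lower, at 105 ± 43.2 and 27.8 ± 9.48 CPM, and so was the pseudogene Serpina4-ps1, at 359 ± 139 and 56.4 ± 32.5 CPM.

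The remaining Serpina3 copies that were tested are named because they are the nearest relatives, and they were higher. Serpina3i and Serpina3h passed the expression filter only through the LPS mice, which fixes their direction. Serpina3i had 3, 3, 0 and 1 counts in the control mice and 434, 735 and 651 counts in the LPS mice. Serpina3f was at 1.94 ± 0.592 CPM (SD, n = 4) in control mice and 11.9 ± 6.45 CPM (SD, n = 3) in LPS mice, and Serpina3h at 0.248 ± 0.194 and 2.24 ± 0.268 CPM. Adding every Serpina3 gene of the table to the sum, 14 in all, left its log2 fold change at 1.21.

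Among 26 other plasma protease inhibitors, 11 were higher, 5 lower and 10 did not pass, with a median log2 fold change of 0.33. The filter fixed the direction in the same way for 3 of the 11. The most abundant that were higher included Itih4, at 1042 ± 265 CPM (SD, n = 4) in control mice and 8327 ± 1599 CPM (SD, n = 3) in LPS mice, and Itih3, at 713 ± 114 and 3724 ± 463 CPM, both heavy chains of the inter-alpha-trypsin inhibitor family. Pzp, a broad protease trap of the alpha-2 macroglobulin family, was at 2982 ± 816 and 5924 ± 969 CPM, and Ambp, the precursor of bikunin, at 2297 ± 209 and 4476 ± 629 CPM. A2m, named for its role beside Pzp, was at 1.43 ± 0.580 and 732 ± 84.2 CPM. Mug1 and Mug2, named as members of the same family, were lower, at 3064 ± 618 and 2070 ± 92.7 CPM and at 540 ± 46.7 and 171 ± 9.19 CPM. Antithrombin (Serpinc1), named as the main inhibitor of thrombin, was lower, at 1766 ± 60.6 and 1247 ± 177 CPM with an adjusted p of 0.0356 in edgeR's quasi-likelihood test.

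Proteases that these inhibitors bind, or their close relatives, were at very different levels in liver. Of 21 listed, 13 were tested, and 6 were higher, 3 lower and 4 did not pass, with a median log2 fold change of 0.65. For 2 of the higher and 1 of the lower genes the filter fixed the direction. Neutrophil elastase (Elane) had 0, 8, 6 and 0 counts in the control mice and 3, 2 and 6 counts in the LPS mice, and cathepsin G (Ctsg) had 0 counts in all mice but LPS replicate 3, which had 3, so neither was tested. Granzyme B (Gzmb), the Serpina3n target, was at 0.420 ± 0.249 CPM (SD, n = 4) in control mice and 4.52 ± 2.21 CPM (SD, n = 3) in LPS mice, and passed the filter only through the latter. Cathepsin L (Ctsl), a lysosomal cysteine protease, was at 655 ± 56.6 and 2653 ± 589 CPM, and cathepsin C (Ctsc), which activates granule proteases, at 53.6 ± 22.7 and 116 ± 8.39 CPM. Plasma kallikrein (Klkb1) was lower, at 383 ± 27.2 and 159 ± 15.8 CPM, while F11, coagulation factor XI, was higher, at 117 ± 4.80 and 167 ± 18.1 CPM.

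Signals and transcription factors known to act on acute phase genes were listed next. Of 27, 22 were tested, and 11 were higher, 2 lower and 9 did not pass, with a median log2 fold change of 0.54. The interleukin-1 receptor Il1r1 was at 43.9 ± 9.82 CPM (SD, n = 4) in control mice and 217 ± 3.99 CPM (SD, n = 3) in LPS mice. Stat3, which carries interleukin-6 signals to the nucleus, was at 52.7 ± 12.7 and 166 ± 11.6 CPM, and its inhibitor Socs3 at 7.02 ± 3.16 and 52.6 ± 11.9 CPM. These 2 are named for their role. Hnf4a was at 309 ± 61.4 and 517 ± 83.3 CPM. The leukaemia inhibitory factor receptor Lifr was lower, at 412 ± 141 and 47.0 ± 6.63 CPM, and so was Cebpa, at 252 ± 21.4 and 174 ± 9.67 CPM. The other C/EBP factors of the list, named for their role, were higher. Cebpb was at 22.6 ± 6.20 and 42.8 ± 1.94 CPM, and Cebpd at 1.80 ± 0.949 and 9.12 ± 0.726 CPM. Il6 had 0, 7, 0 and 0 counts in the control mice and 11, 9 and 10 counts in the LPS mice and was not tested.

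Genes for folding, export and degradation of secreted proteins such as alpha-1 antitrypsin were higher or did not pass. Of 15 tested, 8 were higher, 0 lower and 7 did not pass, with a median log2 fold change of 0.62. The fitted log2 fold changes were above 0 for all 15, so no unadjusted p pointed lower either. The chaperone Hspa5 was at 681 ± 110 CPM (SD, n = 4) in control mice and 1645 ± 130 CPM (SD, n = 3) in LPS mice. Calr was at 1089 ± 206 and 2106 ± 300 CPM, Hsp90b1 at 972 ± 108 and 1949 ± 250 CPM, and Pdia4 at 202 ± 29.3 and 530 ± 58.4 CPM.

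Alpha-1 antitrypsin is best known as an inhibitor of neutrophil elastase, and which of the 5 Serpina1 products inhibit it was not tested. Neutrophils were followed by 9 markers. Of these, 7 were tested and were higher, but all except S100a9 and Csf3r passed the expression filter only through the LPS mice, which fixes their direction. Their median log2 fold change was 5.39 with genes at 3 or fewer counts in every control mouse set to 3 counts. The 9 markers summed to 5.23, 4.03, 1.65 and 2.95 CPM in the control mice and to 202, 145 and 143 CPM in the LPS mice, without overlap. By group mean Csf3r was the most abundant in control mice and S100a9 in LPS mice. Ly6g and Camp were not tested, and Ly6g was at 0 in all control mice and in LPS replicate 2. Of the 9 macrophage and Kupffer cell markers, 5 were higher, 1 was lower and 3 did not pass, with a median log2 fold change of 0.87. Their part in the Serpina changes was not tested.

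For each of the 10 genes, the 3 tested genes outside them with the nearest profile over the 7 livers were found, by the root mean square difference of centred log2 CPM. Serpina3n was nearest to Cd14 (0.23), the LPS co-receptor, followed by ENSMUSG00000120763 (0.28) and Clec4e (0.30). Serpina3g was nearest to Itgb2 (0.17), the beta chain of leukocyte integrins, then Fscn1 (0.22) and the Fc receptor Fcgr3 (0.25). Serpina3m was nearest to the citrate transporter Slc13a5 (0.32), then Slc3a1 (0.37) and F13a1 (0.43). Serpina3k was nearest to Zdhhc3 (0.05), Vta1 (0.06) and Pcx (0.07), and Serpina3c to Orm3 (0.48), Piwil2 (0.52) and Car4 (0.60). Among the Serpina1 genes, Serpina1d was nearest to the mitochondrial enzymes Acsm1 (0.02), Acaa2 (0.04) and Aldh4a1 (0.06). Serpina1b was nearest to Phyh (0.07), Arf5 (0.07) and Cebpa (0.08), and Serpina1c to Tufm (0.06), Stoml2 (0.06) and Bag1 (0.07). Serpina1e was nearest to Mapk9 (0.05), Clcn4 (0.05) and Ubr3 (0.06), and Serpina1a to Dcbld2 (0.09), Ro60 (0.10) and Tmem18 (0.11). Log2 CPM carries a prior count of 2, which shrinks changes from levels near 0. The distances of ENSMUSG00000120763, Clec4e, F13a1, Piwil2 and Car4, whose control means were at most 0.183 CPM, depend on it. So do all 3 distances of Serpina3c, which itself had 18, 7, 9 and 1 counts in the control mice.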

How the data were processed

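Strand-specific poly(A) libraries of liver RNA were sequenced by the study. The deposited values are raw counts of reads for each gene in each sample, without normalization. The processing notes name cutadapt 1.9.1, HISAT2 2.2.1, HTSeq 0.6.1, DESeq2 1.34.0 and the build GRCm39. The methods give DESeq2 as 1.48.1 and name Cufflinks for FPKM, which were not used here, while the annotation, the strand setting and the handling of multi-mapped reads are not given in the sources used here. The 7 samples were grouped by the labelled treatment. The genes and the lists were chosen with earlier results of these data known.

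Counts of 56691 genes were filtered with filterByExpr, scaled by TMM and tested with edgeR 4.0.16 (glmQLFit and glmQLFTest, treatment as the only term) in R 4.3.3, with Benjamini-Hochberg adjustment over 13683 genes and a threshold of 0.05. Standard errors and 95% intervals came from the quasi-likelihood F statistic. For the family sums, the 10 rows were replaced by 2 sums and the fit was repeated. Log ratios of paralogs had 0.5 added to each count. Exact permutation tests ran over all 35 splits in Python 3.11.15. Identities were computed with Biopython 1.88, from GENCODE M21 transcripts, whose build (GRCm38) differs from that of the counts, so no gene coordinates are given and only RefSeq promoter positions are. Gene identifiers found in GENCODE M21 numbered 52073.

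The alternatives tried were 2 other filters, DESeq2 1.42.0, total counts, RLE factors, 2 other library sizes, stricter thresholds, each mouse left out, LPS replicates 2 and 3 summed, wider sums and the replicate number as a block. From each list, the tested genes that passed with the largest mean CPM were named, at most 4, plus genes named for their role. From the lists of the design, 1 marker list and 1 single gene are not reported here. Intervals cover the spread between samples and not the read division.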

Additional observations from a re-analysis of the deposited data

How the results depend on the processing

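No fold change of a gene or sum reversed under any alternative. Serpina3c, Serpina3g, Serpina3m, Serpina3n, the Serpina3 sum and Serpina1d had an adjusted p below 0.05 in every refit, and Serpina1a in none. Serpina3c passed the expression filter only through the LPS mice, which fixes its direction, so its repeated calls are not read as stability. The Serpina1 sum passed with DESeq2 (log2 fold change -0.397) and with total counts (-0.523). Serpina1b, at -0.51, did not pass with RLE factors (adjusted p = 0.0511) or with no filter (adjusted p = 0.0747). Serpina1b, Serpina1d and Serpina3k passed neither an adjusted p of 0.01 nor an absolute log2 fold change above 1. Genes of the 10 called lower numbered 4 with DESeq2, 1 with RLE factors, no filter or LPS replicates 2 and 3 summed, 0 at an adjusted p of 0.01 or an absolute log2 fold change above 1, and 1 in each fit that left out a mouse. Across all genes, 1091 were higher and 993 lower at an adjusted p of 0.01, and 1068 and 1000 with an absolute log2 fold change above 1. Leaving out each mouse gave 1290 to 1906 higher and 1146 to 1868 lower. The cause of these shifts was not tested, beyond the fewer samples or stricter thresholds used.

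Replicate numbers did not pair the samples: deviations of same-numbered livers correlated at 0.18, -0.06 and 0.07, and LPS replicates 2 and 3 did not correlate best with their own number. With the replicate block, 1647 genes were higher and 1587 lower, the Serpina3 sum was at 1.24 and the Serpina1 sum at -0.42, and no call among the 10 genes changed.

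Serpina3c has no value under the filter of 10 counts in every sample. The summed hepatocyte markers differed by -7677.5 CPM in the group means, and by -28322 CPM without Fgb, an alternative chosen after the results were seen.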

Other observations

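Markers of other liver cell types moved in different directions. Of 6 stellate cell markers, 3 were lower (Lrat, Reln and Colec11) and 3 did not pass, with a median log2 fold change of -0.74 against -0.01 over all genes. They summed to 333, 250.4, 154 and 254 CPM in the control mice and 197, 165 and 156 CPM in the LPS mice, which overlapped, and Dcn was the most abundant. Of 6 sinusoidal endothelium markers, Pecam1 and Lyve1 were higher, Clec4g and Kdr lower and 2 did not pass, with a median of -0.09. Clec4g and Stab2 had the highest means in control mice, and Pecam1 had the highest in LPS mice. Clec4g, a lectin of sinusoidal endothelium that passed the expression filter through the control mice only, was at 25.3 ± 4.18 CPM (SD, n = 4) in control mice and 1.16 ± 0.780 CPM (SD, n = 3) in LPS mice. The Kupffer cell lectin Clec4f was lower, at 54.4 ± 11.7 and 12.3 ± 10.3 CPM.

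Of 5 cholangiocyte markers, Sox9 was higher and 4 did not pass, with a median of -0.34 and Spp1 the most abundant. Of 5 erythroid markers, 4 were lower and 1 did not pass, with a median of -1.41, and their sum was 307, 183, 232 and 179 CPM in the control mice and 136, 53.8 and 53.7 CPM in the LPS mice, where LPS replicate 1 stood apart. Hbb-bs was the most abundant by group mean, but Alas2 was above it in control replicates 3 and 4 and in LPS replicates 2 and 3. Of 8 T and NK cell markers only Cd4 could be tested, through the control mice alone, which fixes its direction, at 2.13 ± 0.231 and 0.258 ± 0.232 CPM.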
